A study of Danio rerio with 6 samples.

Results

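The genes described here encode 10 proteins of the Prp19 complex and of the catalytic spliceosome around it. They were chosen by name, prpf19, cdc5l, plrg1, bcas2, crnkl1, xab2, aqr, isy1, syf2 and bud31, and each name matched 1 of the 25432 gene records in the count table. That choice was made with earlier results of these data known. RNA came from whole zebrafish embryos, 72 hours after fertilization, and was sequenced after poly(A) selection. The wbp11-MO group (embryos that received a morpholino directed at wbp11) and the control-MO group (control morpholino) had 3 libraries each, with 50 embryos pooled per library. Morpholinos are antisense oligomers that act on translation or on splicing of the RNA they bind, and the strain, the dose and the mode of block are not stated in the labels. Both groups are injected embryos, and no uninjected group was analysed here.

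The spliceosome removes introns in successive chemical steps. The Prp19 complex joins it when it is activated, stays through them and holds the catalytic RNA in place. Its core is built on Prp19, a U-box ubiquitin ligase, together with Cdc5l, Plrg1 and Bcas2. Crnkl1, Syf2, Isy1 and Xab2 belong to the wider complex in yeast or human, and Bud31 lies near the active site. Aqr, an RNA helicase, forms an intron-binding module with Xab2, Isy1 and the peptidyl-prolyl isomerase Ppie in human cells. Wbp11, the target of the morpholino, is itself a spliceosome-associated protein.

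The libraries held between 11219706 and 13669995 counted reads, and the 10 genes together took 0.0480% to 0.0738% of them. Mitochondrial transcripts took 3.63% to 3.78% of the reads over the 6 libraries. Correlations of log CPM (scaled counts, relative to the library total) were 0.985 to 0.988 inside a group and 0.894 to 0.904 from one group to the other. The wbp11 record on chromosome 3 averaged 24.7 ± 1.45 CPM in wbp11-MO libraries and 14.9 ± 2.61 CPM in control-MO libraries (SD, n = 3 each), and was called higher (edgeR adjusted p = 4.7e-06). A second record, on the scaffold KN150013.1, averaged 10.1 ± 0.74 CPM in wbp11-MO libraries and 8.12 ± 1.02 CPM in control-MO libraries (SD, n = 3 each, edgeR adjusted p = 0.10). No fall of wbp11 RNA was seen in either record. The labels do not state whether the block is on translation, which need not change the RNA, or on splicing. The labels could therefore not be checked by the target's RNA, and every direction below is that of the libraries as labelled.

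The comparison asked how transcripts of this machinery stood in embryos given the wbp11 morpholino. Of the 10 genes, 9 rose in wbp11-MO libraries, 0 fell, and bud31 did not pass the test (edgeR quasi-likelihood test, adjusted p under 0.05 over all tested genes). The largest rises were those of aqr, isy1 and xab2, which reached 2.27-fold, 2.11-fold and 1.94-fold the control-MO level. The core genes prpf19, bcas2 and plrg1 stood at 1.53-fold, 1.48-fold and 1.43-fold. The remaining core gene, cdc5l, stood at 1.15-fold, and syf2 at 1.14-fold. All 10 genes passed the filter on low counts. Of all 20012 genes tested, 30.5% were called higher and 31.2% lower, 61.7% in all. The median log2 fold change was 0.59 over the 10 genes and 0.0013 over all tested genes. In all 10 genes the 3 wbp11-MO libraries stood above the 3 control-MO libraries, a separation in that direction seen in 32.3% of tested genes (65.4% in either direction).

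**Figure D1:**
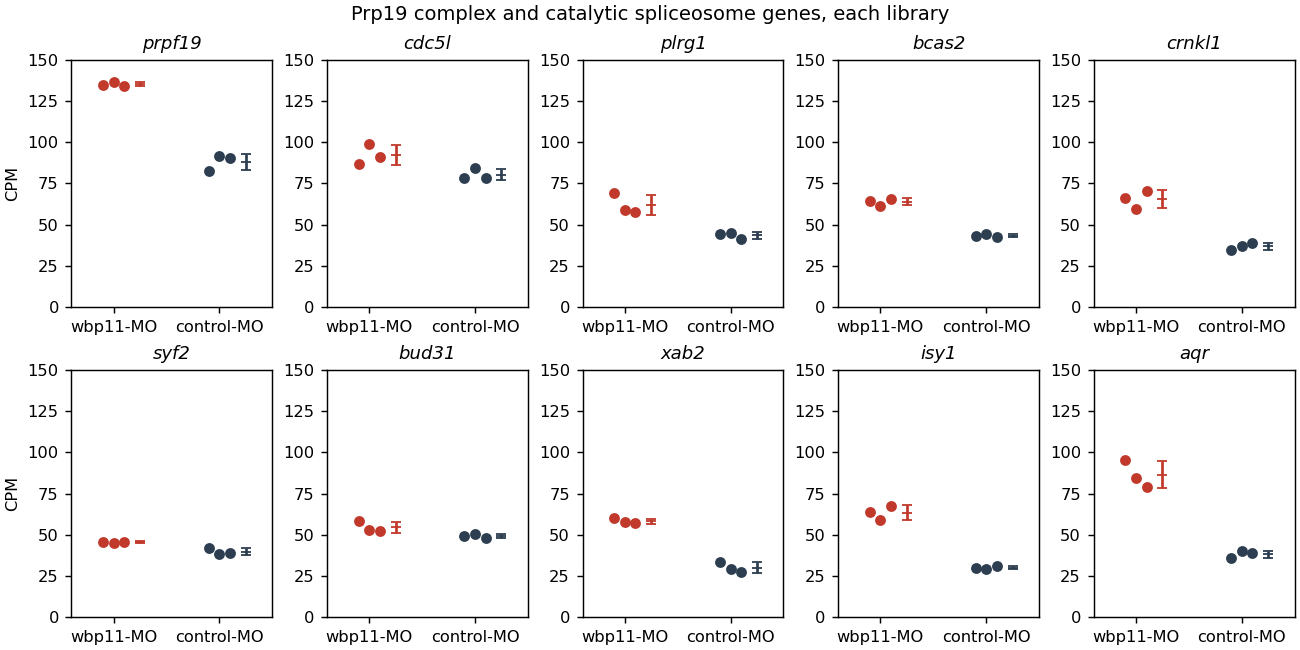
CPM of each of the 10 genes (y axis) in wbp11-MO and control-MO libraries (x axis), with points for libraries and bars for mean ± SD of 3. The groups are far apart for aqr, isy1 and xab2, for aqr at 79.3 to 95.6 CPM in wbp11-MO and 35.7 to 39.9 CPM in control-MO libraries, and close together for bud31, at 52.3 to 58.3 CPM in wbp11-MO and 48.0 to 50.5 CPM in control-MO libraries.

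The intron-binding genes are given first, since their change was the largest. The gene aqr (ENSDARG00000016775, chromosome 17, 51020114 to 51121525, minus strand, GRCz11) encodes the helicase of the module. It stood at 95.6, 84.6 and 79.3 CPM in wbp11-MO libraries, against 35.7, 39.9 and 38.8 CPM in control-MO libraries. Even the lowest wbp11-MO library was far above every control-MO library, and replicate 1 was the highest of its group. The change on the log2 scale was 1.18 ± 0.07 (SE, edgeR adjusted p = 9.3e-15), with a 95% interval of 1.03 to 1.34. Ordered from the largest rise down to the largest fall, aqr ranked at place 766 of the 20012 genes tested.

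The gene isy1 (ENSDARG00000063466, chromosome 11, 474433 to 486532, minus strand) encodes a small protein of the wider Prp19 complex that acts at the first catalytic step in yeast. It stood at 63.7, 58.8 and 67.6 CPM in wbp11-MO libraries, against 30.1, 29.2 and 30.8 CPM in control-MO libraries. The controls lay close to each other, and the groups were far apart. The change on the log2 scale was 1.08 ± 0.08 (SE, edgeR adjusted p = 1.9e-13). The next gene downstream on the same strand, zgc:77375, starts 1885 bases away and fell (edgeR adjusted p = 1.1e-09), with 15.3 ± 1.15 CPM in wbp11-MO libraries and 31.6 ± 3.92 CPM in control-MO libraries (SD, n = 3 each).

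The gene xab2 (ENSDARG00000007092, chromosome 3, 53317040 to 53350547, plus strand) encodes a helical-repeat scaffold that in human also binds the repair protein XPA. Its values were 60.0, 57.6 and 57.2 CPM in wbp11-MO libraries, against 33.7, 29.2 and 27.2 CPM in control-MO libraries. Here the spread was wider among the controls, with a coefficient of variation of 11.1% against 2.57% in the wbp11-MO group. The change on the log2 scale was 0.95 ± 0.08 (SE, edgeR adjusted p = 1.2e-11). The gene camsap3, 1470 bases beyond xab2 on the same strand, fell (log2 fold change -0.24 ± 0.10, SE, edgeR adjusted p = 0.029). The call of camsap3 was lost with DESeq2 (adjusted p = 0.054) and, by edgeR, when wbp11-MO replicate 3 (adjusted p = 0.13), control-MO replicate 2 (adjusted p = 0.063) or control-MO replicate 3 (adjusted p = 0.083) was left out.

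Among the scaffold and active-site proteins the genes differed from one another. The gene crnkl1 (ENSDARG00000007901, chromosome 20, 49081967 to 49103317, plus strand) encodes a second helical-repeat scaffold, named after the fly gene crooked neck. It stood at 66.5, 59.6 and 70.4 CPM in wbp11-MO libraries, against 34.5, 37.2 and 38.6 CPM in control-MO libraries. The lowest wbp11-MO library was well above the highest control-MO library, and the change on the log2 scale was 0.83 ± 0.08 (SE, edgeR adjusted p = 6.1e-11).

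The gene syf2 (ENSDARG00000004706, chromosome 13, 45431660 to 45443008, plus strand) encodes a small protein that in yeast sits beside the scaffold proteins. It stood at 45.8, 44.8 and 45.8 CPM in wbp11-MO libraries, against 42.1, 38.3 and 38.9 CPM in control-MO libraries. The groups did not overlap but lay close together, and the change on the log2 scale was 0.19 ± 0.08 (SE, edgeR adjusted p = 0.029). Leaving out wbp11-MO replicate 1 or 3, or control-MO replicate 2 or 3, ended this call (edgeR adjusted p = 0.072, 0.073, 0.087 and 0.084). It was also lost with DESeq2, upper-quartile factors and library totals (adjusted p = 0.061, 0.072 and 0.18), and adjusted p ran from 0.023 to 0.18 over all alternatives.

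The gene bud31 (ENSDARG00000017084, chromosome 3, 40284598 to 40287841, plus strand) encodes a small zinc-binding protein near the catalytic centre. It stood at 58.3, 53.0 and 52.3 CPM in wbp11-MO libraries, against 49.2, 50.5 and 48.0 CPM in control-MO libraries. The change on the log2 scale was 0.15 ± 0.07 (SE, edgeR adjusted p = 0.071), and its 95% interval of 0.0033 to 0.29 ends far below the interval of aqr. Unlike the adjusted p, that interval takes no account of the number of genes tested. Under none of the 14 alternatives did bud31 pass the test (adjusted p 0.067 to 0.38). Its change was 0.090 without wbp11-MO replicate 1 and 0.077 with library totals. The first 147 bases of bud31 overlap the first bases of pdap1b on the opposite strand, and with no strand setting stated for the counting, reads there cannot be told apart. The gene pdap1b averaged 38.0 ± 1.62 CPM in wbp11-MO libraries and 32.5 ± 1.37 CPM in control-MO libraries (SD, n = 3 each), and was called higher (edgeR adjusted p = 0.021). That call was lost with upper-quartile factors and library totals (edgeR adjusted p = 0.051 and 0.12), and when wbp11-MO replicate 2 (0.091) or control-MO replicate 2 (0.072) was left out. The gene cpsf4, 1576 bases beyond bud31 on the same strand, rose by 0.38 ± 0.11 on the log2 scale (SE, edgeR adjusted p = 0.0031).

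In the core of the complex, 3 genes rose together by similar sizes and the fourth by less. The gene prpf19 (ENSDARG00000015239, chromosome 14, 16287968 to 16301402, plus strand), which encodes the ubiquitin ligase, was the most counted of the 10. It stood at 135, 137 and 134 CPM in wbp11-MO libraries, against 82.8, 91.6 and 90.4 CPM in control-MO libraries. The wbp11-MO libraries were nearly alike (coefficient of variation 0.94%), and the change on the log2 scale was 0.62 ± 0.06 (SE, edgeR adjusted p = 8.9e-11).

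The gene bcas2 (ENSDARG00000043631, chromosome 8, 11008763 to 11016766, minus strand) encodes the smallest core subunit. It stood at 64.6, 61.4 and 65.8 CPM in wbp11-MO libraries, against 43.2, 44.2 and 42.2 CPM in control-MO libraries. Both groups were tight, and the change on the log2 scale was 0.57 ± 0.07 (SE, edgeR adjusted p = 2.4e-08). The gene plrg1 (ENSDARG00000037283, chromosome 1, 25650917 to 25666604, plus strand) encodes a WD40-repeat subunit. It stood at 69.2, 58.8 and 57.9 CPM in wbp11-MO libraries, against 44.2, 44.8 and 41.3 CPM in control-MO libraries. Replicate 1 was well above the other 2 wbp11-MO libraries, which were close together and still above every control-MO library. The change on the log2 scale was 0.51 ± 0.08 (SE, edgeR adjusted p = 7.9e-07), and 0.42 to 0.56 over the alternatives.

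The gene cdc5l (ENSDARG00000043797, chromosome 17, 5061135 to 5105922, plus strand) encodes the Myb-domain partner of Prp19. It stood at 86.6, 98.8 and 91.3 CPM in wbp11-MO libraries, against 78.5, 84.4 and 78.3 CPM in control-MO libraries. The lowest wbp11-MO library was only just above the highest control-MO library. The change on the log2 scale was 0.20 ± 0.06 (SE, edgeR adjusted p = 0.0071), with a 95% interval of 0.07 to 0.33 that lies below the whole interval of prpf19, 0.50 to 0.73. The call was lost without wbp11-MO replicate 2 (edgeR adjusted p = 0.073) and with library totals (edgeR adjusted p = 0.090), with 0.0034 to 0.090 over all alternatives.

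**Figure D2:**
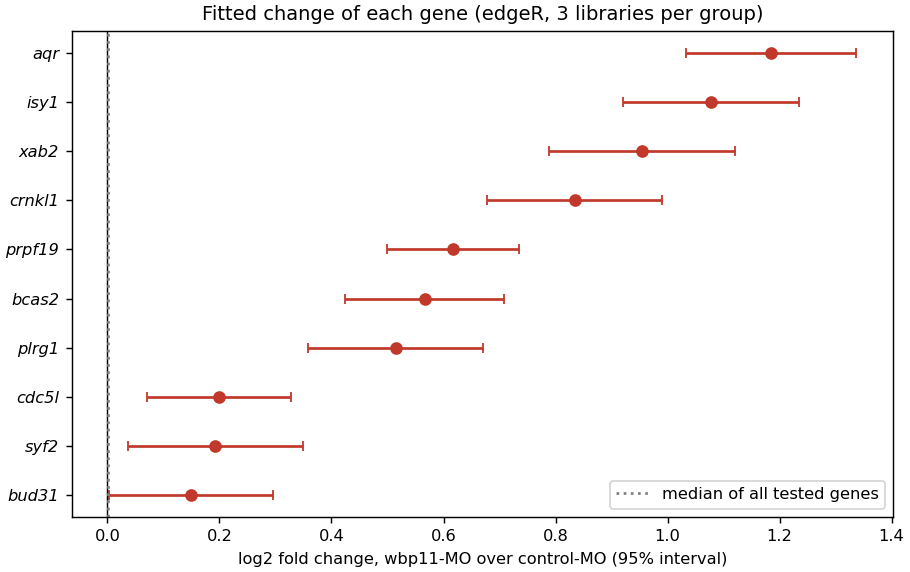
Fitted log2 fold change, wbp11-MO over control-MO, of each gene (x axis) with its 95% interval, ordered by size, with a dotted line at the median of all tested genes. The genes aqr, isy1, xab2 and crnkl1 lie between 0.83 and 1.18, and the core genes prpf19, bcas2 and plrg1 between 0.51 and 0.62. The remaining core gene, cdc5l, lies with syf2 and bud31 between 0.15 and 0.20.

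Levels of different genes can be compared only per gene length, here as FPKM (reads relative to gene length and library total). In control-MO libraries bud31 was the highest at 42.6 ± 1.74 FPKM, followed by bcas2 at 39.9 ± 1.55 and prpf19 at 37.4 ± 2.48 FPKM (SD, n = 3). The ranges of these neighbours overlapped across libraries, but within every control-MO library the order was bud31, bcas2, prpf19. At the bottom stood xab2, isy1 and aqr at 10.6 ± 1.13, 8.63 ± 0.13 and 8.54 ± 0.61 FPKM, and of these neighbours only isy1 and aqr overlapped. In wbp11-MO libraries bcas2 and prpf19 were the highest, at 56.1 ± 2.30 and 54.5 ± 0.80 FPKM, and bud31 came next at 44.9 ± 3.39 FPKM, below both in every library. The genes plrg1, syf2 and crnkl1 had 27.6 ± 3.22, 27.3 ± 0.62 and 26.9 ± 2.30 FPKM there with overlapping ranges, whereas in control-MO libraries the 3 did not overlap. The distance from the highest to the lowest of the 10 was 3.25-fold to 3.43-fold in wbp11-MO libraries and 4.78-fold to 5.33-fold in control-MO libraries.

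**Figure D3:**
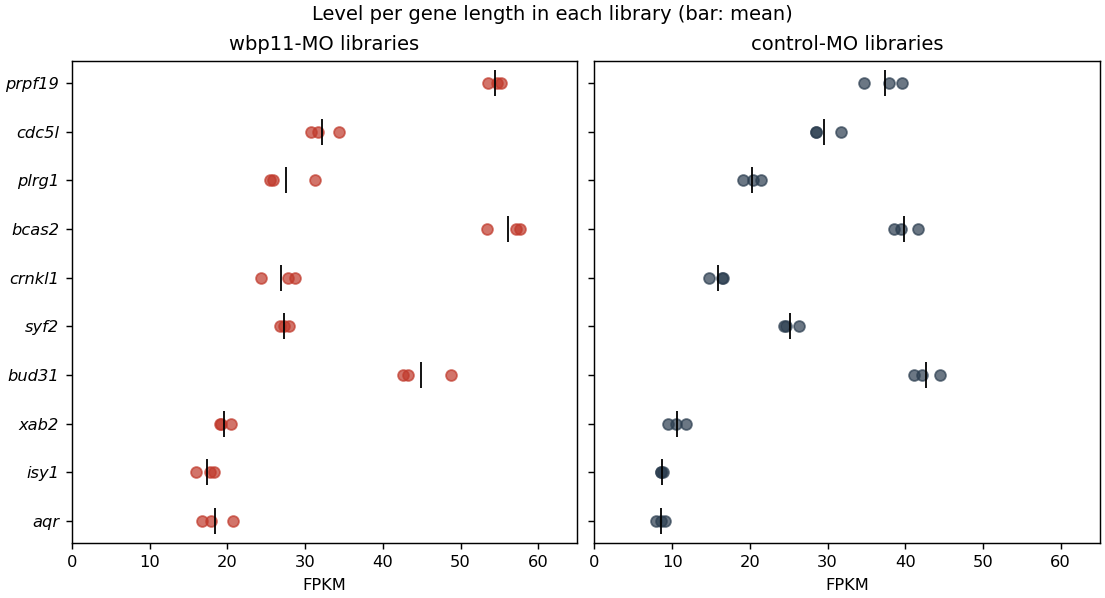
FPKM of each gene (x axis) in the 3 wbp11-MO libraries (left) and the 3 control-MO libraries (right), with a bar at the mean, genes grouped by role from core to intron-binding. The gene bud31 is highest among the control-MO libraries at 42.6 FPKM and stands behind bcas2 and prpf19 in the wbp11-MO libraries.

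Shares of the summed FPKM of the 10 genes do not depend on how libraries are scaled. The sum was 338, 316 and 320 FPKM in wbp11-MO libraries and 235, 248 and 233 FPKM in control-MO libraries. The share of aqr was 5.67% ± 0.45 in wbp11-MO libraries and 3.58% ± 0.18 in control-MO libraries, and that of isy1 was 5.33% ± 0.34 in wbp11-MO libraries and 3.62% ± 0.16 in control-MO libraries (SD, n = 3 each). For xab2 the share was 6.02% ± 0.08 in wbp11-MO libraries and 4.45% ± 0.50 in control-MO libraries. All 3 intron-binding genes thus took more of the sum in wbp11-MO libraries, and the genes at the other end took less. The share of bud31 was 13.8% ± 0.57 in wbp11-MO libraries and 17.9% ± 0.17 in control-MO libraries, and that of cdc5l was 9.95% ± 0.88 in wbp11-MO libraries and 12.4% ± 0.33 in control-MO libraries (SD, n = 3 each). Computed from CPM with no length correction, the difference between the groups (wbp11-MO minus control-MO) was 3.93 percentage points for aqr and -4.07 for cdc5l, against 2.09 and -2.45 with it. The share of plrg1 overlapped between groups, at 8.47% ± 0.68 in wbp11-MO libraries and 8.51% ± 0.28 in control-MO libraries (two-sided exact permutation test, p = 1.0). The other 9 shares did not overlap between groups and gave p = 0.10 in the same exact permutation test, the smallest p that 3 libraries against 3 allow, and 0.11 after Benjamini-Hochberg adjustment over the 10. The shares are parts of the same sum, so rises of some force falls of others, and they are not separate results. By CPM, a measure unlike these shares, the groups did not overlap in 65.4% of all tested genes, in either direction. No such background was computed for shares. Set against prpf19 in the same library, aqr had a ratio of 0.34 ± 0.03 in wbp11-MO libraries and 0.23 ± 0.0018 in control-MO libraries, and bud31 one of 0.82 ± 0.05 in wbp11-MO libraries and 1.14 ± 0.07 in control-MO libraries (SD, n = 3 each). The ratio of bcas2 to prpf19 was 1.03 ± 0.05 in wbp11-MO libraries and 1.07 ± 0.06 in control-MO libraries, a difference within the spread between libraries.

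The changes ran with length among these genes, a relation chosen after the values were seen. Length here is the value deposited with the counts, which is shorter than the span between the coordinates printed above. By this length the 3 genes with the largest changes, aqr, isy1 and xab2, are also the longest of the 10, at 4575, 3563 and 2903 bases. By the coordinates cdc5l spans more than xab2 or isy1, and span was not set against the changes. The short genes bud31 and syf2, at 1185 and 1622 bases, had the smallest log2 fold changes, but bcas2 at 1110 bases is the shortest and had a log2 fold change of 0.57, and cdc5l at 2786 bases one of 0.20. Spearman's rho between length and log2 fold change was 0.77 over the 10 genes, 0.27 over 49 other splicing genes tested and 0.037 over all 20012 tested genes. These genes share the same libraries and no test was made. Over all tested genes the median log2 fold change was -0.032 in the 6673 shortest genes, 0.0039 in the 6666 of middle length and 0.040 in the 6673 longest.

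**Figure D4:**
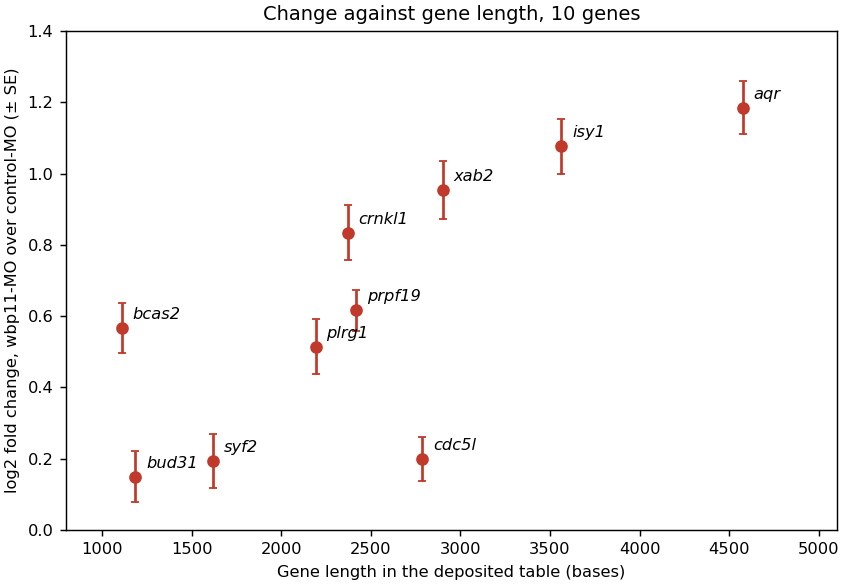
Log2 fold change, wbp11-MO over control-MO, with its SE (y axis) against the gene length of the deposited table (x axis) for the 10 genes. The longest, aqr at 4575 bases, had the largest change of 1.18, while cdc5l at 2786 bases had 0.20.

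Other splicing genes, not all of them of the catalytic spliceosome, came from lists chosen with earlier results of these data known. Of 8 tested genes that encode further proteins of the Prp19 complex or its relatives, 6 rose and 0 fell, with a median log2 fold change of 0.46. Among all tested genes, 30.5% were called higher and 31.2% lower. The gene ppie, which encodes the isomerase of the intron-binding module, rose by 0.94 ± 0.11 (SE, edgeR adjusted p = 5.8e-09). It had 28.5 CPM on average in wbp11-MO libraries and 14.8 CPM in control-MO libraries. The gene snw1, whose protein is a disordered scaffold of the active spliceosome, rose by 0.59 ± 0.07. Among the 2 highest of the list by FPKM, ctnnbl1, which encodes an armadillo-repeat partner of Cdc5l, had a log2 fold change of 0.23 ± 0.08 (edgeR adjusted p = 0.014). Its call was lost with library totals (edgeR adjusted p = 0.10), and when wbp11-MO replicate 3 (0.080) or control-MO replicate 3 (0.062) was left out. The chaperone gene hspa8 had a log2 fold change of -0.063 ± 0.043 (edgeR adjusted p = 0.21), and was called lower with upper-quartile factors and with library totals (edgeR adjusted p = 0.036 and 0.0010). The gene cwc15 did not pass the filter on low counts, and znf830, whose symbol was not matched, was not analysed here.

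The factors that act in sequence on the Prp19-bound spliceosome mostly rose as well. Of 11 activation and first-step factors, 9 rose and 0 fell, with a median of 0.39, beside 30.5% of all tested genes called higher. The helicase gene dhx16 rose by 1.04 ± 0.08 and the first-step factor gene cwc25 by 0.87 ± 0.09 on the log2 scale (SE). Of 10 second-step and release factors, 7 rose and 0 fell, with a median of 0.45. The gene cactin rose by 0.71 ± 0.07, the release helicase gene dhx8 by 0.52 ± 0.06 and the second-step factor gene slu7 by 0.45 ± 0.06 (SE). By contrast fam32a, the highest of this list by FPKM, stood at 56.5 CPM in wbp11-MO libraries and 57.3 CPM in control-MO libraries (edgeR adjusted p = 0.78). All 6 genes of intron lariat disassembly rose, with a median of 0.42. Here tfip11 rose by 0.81 ± 0.08 and its partner, the helicase gene dhx15, by 0.40 ± 0.05. The gene of the debranching enzyme, dbr1, rose by 0.29 ± 0.11 (SE, edgeR adjusted p = 0.021), a call lost without wbp11-MO replicate 2, control-MO replicate 1 or control-MO replicate 2 and with library totals (edgeR adjusted p = 0.28, 0.052, 0.070 and 0.084). It stood at 0.14 on the log2 scale without wbp11-MO replicate 2.

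The U5 particle, which the Prp19 complex contacts at the active site, had the largest median of these lists, 0.89, with 7 of 8 genes higher and 1 lower. The GTPase gene eftud2 rose by 1.58 ± 0.05, the helicase gene snrnp200 by 1.45 ± 0.05 and prpf8, which encodes the protein around the catalytic centre, by 1.02 ± 0.05 (SE). Its member txnl4a, which encodes a small thioredoxin-like protein, fell by 0.25 on the log2 scale (SE 0.10, edgeR adjusted p = 0.028). That call was lost with DESeq2 (adjusted p = 0.052), and with edgeR when wbp11-MO replicate 2 (adjusted p = 0.14) or control-MO replicate 3 (adjusted p = 0.089) was left out. All 6 exon junction genes rose, with a median of 0.49, among them rnps1 by 1.17 ± 0.13, the helicase gene eif4a3 by 0.72 ± 0.05, magoh by 0.55 ± 0.06 and rbm8a by 0.42 ± 0.06 (SE). The smallest log2 fold change of the exon junction genes was 0.17. With library totals 5 of them were called higher, with a median of 0.415. Calls over all tested genes were 30.5% higher and 31.2% lower, and the medians were compared with no test between lists.

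**Figure D5:**
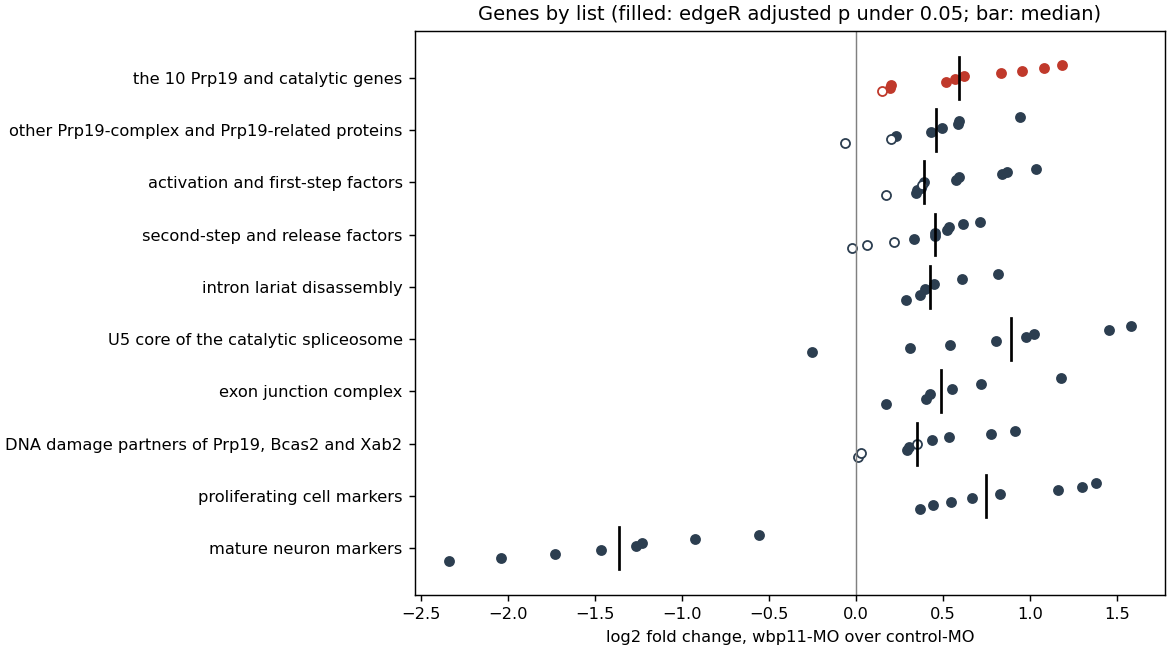
Log2 fold change, wbp11-MO over control-MO (x axis), of each tested gene in the 10 lists, filled where the edgeR adjusted p is under 0.05, with a bar at the list's median. The 10 genes range from 0.15 to 1.18 around a median of 0.59, and the U5 genes from -0.25 to 1.58 around 0.89.

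Whole embryos hold many cell types, and in bulk samples fewer cells of a type and less RNA per cell cannot be told apart. Markers of proliferating cells moved in the same direction as the 9 genes that rose. All 8 rose, with a median of 0.75, and their summed level was 1543 to 1615 CPM in wbp11-MO libraries and 941 to 976 CPM in control-MO libraries. The cyclin gene ccnb1 rose by 1.37 and the mitotic kinase gene plk1 by 1.30, and the most abundant, pcna and mki67, by 0.37 and 0.83. All 8 listed neuron markers, not all of them particular to mature neurons, fell, with log2 fold changes of -2.34 to -0.56 and a median of -1.36. Their summed level was 453 to 494 CPM in wbp11-MO libraries and 1186 to 1231 CPM in control-MO libraries. Over all tested genes, 30.5% were called higher and 31.2% lower. The synaptic genes sypb and snap25b had log2 fold changes of -2.34 and -2.04, and snap25a and stmn2a -1.23 and -0.93. No marker of either list was at 0, and the part of these cells in the changes of the 10 genes was not tested.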

How the data were processed

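Per the labels' protocols, poly(A) RNA from 1 pool of 50 embryos per library was selected on oligo(dT) beads, then fragmented and PCR-amplified. FastQC 0.12.1, HTSeq 2.0.5 and GRCz11 are named in the submitters' processing notes. Which aligner, annotation and strand setting were used, and how multi-mapped reads were treated, is not stated there. The deposited counts are raw read counts per gene, per the file headers. The deposited FPKM values follow from these counts, the gene lengths and the column totals to a largest relative difference of 5.2e-15. Replicates are separate pools, per the labels' protocols.

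Counts were fitted over all libraries with edgeR 4.0.16 in R 4.3.3: filterByExpr, TMM, quasi-likelihood F-test, Benjamini-Hochberg adjustment over 20012 genes, threshold 0.05. SE were derived from the F statistic, and 95% intervals from the t distribution, per gene and not adjusted for the number of genes tested. CPM use TMM-adjusted totals, and FPKM the authors' scaling. SD and n are over libraries. The depth of 11219706 to 13669995 counts puts at least 342 reads behind each of the 10 genes in every library. Libraries of a group differed by more than sampling noise (chi-square per degree of freedom 2.59 to 3.93).

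Alternatives were RLE and upper-quartile factors, library totals, no filter, a filter at 1 CPM (in at least 3 libraries), the replicate number as a block, DESeq2 1.42.0, limma-voom (limma 3.58.1) and leaving out each library. The edgeR test was also run on simulated counts of wbp11-MO against control-MO over 20012 genes. It found 35 of 67 genes set to 1.5-fold, 56 of 67 set to 2-fold and 64 of 66 set to 4-fold. There were 9 false calls among the 19812 genes left unchanged. In the real data 61.7% of the 20012 tested genes were called, a far larger part than was changed in the simulation. The Benjamini-Hochberg cutoff depends on that part, so the simulated counts do not give the recovery in the real comparison. Recovery was not split by expression level.

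The 10 genes and the lists were chosen with earlier results of these data known. All 10 are named. From each other list the text names up to 2 called genes per direction with the smallest adjusted p and the 2 with the highest FPKM. The values of 1 gene under this rule are not reported here. Neighbouring genes and cwc15 were named after their values were seen, and znf830 because its symbol was not matched. Symbols of the table were used for matching, and for bud13 a newer symbol of the same identifier. Protein and promoter sequences were not used here.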

Additional observations from a re-analysis of the deposited data

How the results depend on the processing

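Of the 10 genes, 7 to 9 were called higher and 0 lower under the 14 alternatives, and only cdc5l and syf2 lost calls. With library totals the median log2 fold change of the 10 genes was 0.52, and leaving out single libraries gave 0.57 to 0.61. All tested genes called higher numbered 5243 to 6249 and lower 5832 to 6897 over the alternatives. Without single libraries the log2 fold change of fam32a lay between -0.076 and 0.019, the positive value without control-MO replicate 3, and shares of CPM without length correction put the difference of bcas2 at -0.22 percentage points, against 0.56 with it. That alternative also moved the differences of prpf19 (0.20, against 1.11), isy1 (2.45, against 1.71) and bud31 (-2.78, against -4.05), beside those of aqr and cdc5l given above. The causes were not tested. Same-numbered libraries did not deviate together (correlations of -0.022, -0.038 and 0.0098 for replicates 1, 2 and 3). These values cannot tell whether the pools were made in pairs, and the main fit did not pair them. With a replicate block, 5977 genes were called higher and 6119 lower, and 9 of the 10 genes higher. Intervals and SE rest on 3 libraries a group and on a spread that the fit shares over all tested genes. They are therefore not what the 6 libraries would give for 1 gene fitted alone.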

Other observations

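Proteins that meet Prp19, Bcas2 or Xab2 outside splicing, in the response to damaged DNA, were also listed. Of 9 such genes tested, 6 rose and 0 fell in wbp11-MO libraries, with a median log2 fold change of 0.35, against 30.5% of all tested genes called higher. The checkpoint kinase gene atr averaged 31.0 CPM in wbp11-MO libraries and 16.5 CPM in control-MO libraries, a change of 0.91 ± 0.11 on the log2 scale (SE, edgeR adjusted p = 1.7e-08). Its partner gene atrip rose by 0.77 ± 0.13 (SE). The genes rpa1 and rpa2, whose proteins coat single-stranded DNA and are bound by the Prp19 complex in human cells, rose by 0.29 ± 0.06 and 0.31 ± 0.09 (SE). The gene xpa, whose protein is the binding partner that gave Xab2 its name, stood 0.35 ± 0.19 higher on the log2 scale without passing the test (SE, edgeR adjusted p = 0.12). Also without a call, ercc8 and uvssa had log2 fold changes of 0.026 ± 0.12 and 0.011 ± 0.17 (SE, edgeR adjusted p = 0.86 and 0.96). The genes xpa, ercc8 and uvssa were named after their values were seen.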
